A study of Homo sapiens with 2 samples.

Results

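Of the 1507 chromatin loops listed for HEK293T cells, 1038 joined anchors at most 400 kb apart, and 275 of those (26.5%, 95% Wilson interval 23.9 to 29.3%) did not lie at the corner of a contact domain. These 275 off-corner loops are described here. They were chosen from the merged loop table as loops whose 2 anchors start at most 400 kb apart, with no listed domain whose left end lies within 50 kb of the centre of the left anchor and whose right end lies within 50 kb of the centre of the right anchor. The other 763 loops up to 400 kb met both ends of 1 domain and are called corner loops.

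HEK293T is a human embryonic kidney line expressing the large T antigen of SV40. Its chromatin was fixed with formaldehyde, cut with MboI and religated for in situ Hi-C, which counts pairs of genomic sites that lie close together in the nucleus. The series has 1 group of 2 libraries, labelled as replicates 1 and 2, with no treatment beyond fixation and no control group. The library titles write HEK293, while the group is recorded as HEK293T. Loops, domains and compartment scores are each deposited as 1 table for both libraries, so no value has a spread between replicates and no difference between sets of loops could be tested.

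A chromatin loop is a point in the contact map where a pair of sites meets more often than its surroundings. In the loop extrusion model, cohesin reels in chromatin until it meets CTCF bound at convergent sites, and the stretch between those sites then often appears as a contact domain with the loop at its corner. Loops away from corners are also known, among them contacts between enhancers and promoters, loops within a larger domain and loops that enclose neighbouring domains. Loop and domain lists come from separate callers, and a loop can also be off a corner because no domain was listed around it.

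The members fell into classes by where their anchors lay, each loop going to the first class it met. Both anchor centres lay inside 1 listed domain for 73 loops (26.5%, 21.7 to 32.1%). For 16 loops (5.82%, 3.61 to 9.24%) each anchor lay in a domain but no single domain held both, and these are called loops joining 2 domains. In 121 loops (44.0%, 38.3 to 49.9%), the largest class, at least 1 anchor lay within 50 kb of a domain end. A further 64 loops (23.3%, 18.7 to 28.6%) lay outside domains, with neither anchor in a domain or near an end. The last loop, on chromosome 1, had 1 anchor in a domain and none near an end, and is left out of the values by class.

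**Figure D1:**
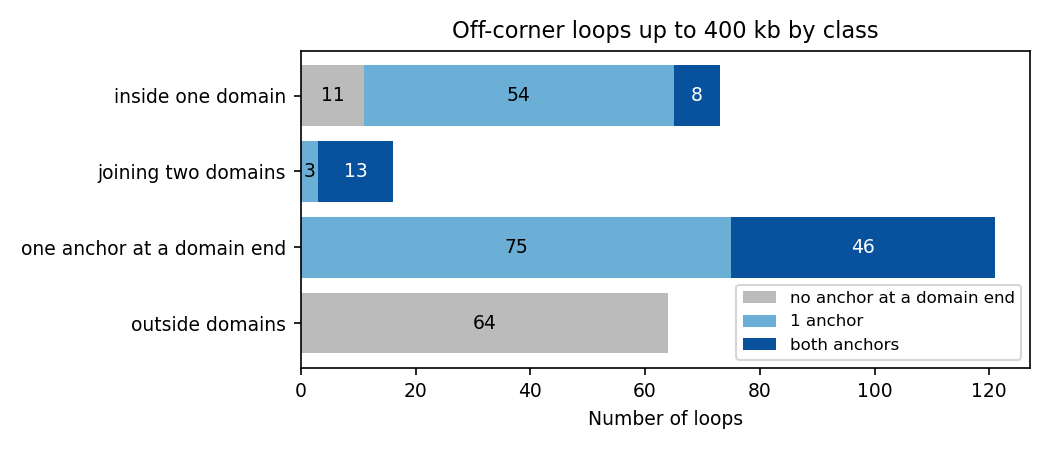
Number of off-corner loops (horizontal axis) in each of the 4 classes, split by how many anchors lie within 50 kb of an end of any domain. Domain ends were also met within the other classes: 54 of 73 loops inside 1 domain had 1 anchor at an end, and 13 of 16 loops joining 2 domains had both; the single loop with 1 anchor in a domain and none near an end is not drawn.

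Domain ends were therefore met in many off-corner loops, but the share that randomly placed anchors would give was not computed. Over all 275 members, 132 (48.0%, 42.2 to 53.9%) had 1 anchor within 50 kb of an end and 76 (27.6%, 22.7 to 33.2%) had none. In the other 67 (24.4%, 19.7 to 29.8%) both anchors lay within 50 kb of an end. Those ends did not belong as left and right end to 1 domain, and in some short loops both anchors lay near the same end. If loops with an anchor at an end are taken out first, 199 loops (72.4%) fall in the domain-end class, 11 remain inside 1 domain and 0 join 2 domains. The classes and the choice of members use loop and domain calls made from 1 contact map, so these counts are a description.

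Most members were far from the corner rule rather than just past it. The offset of a loop is taken here as the larger of the distances from its 2 anchors to the matching ends of the best-fitting domain, and it had a median of 225 kb. It was 50 to 60 kb for 11 loops, 60 to 75 kb for 15, 75 to 100 kb for 20, 100 to 200 kb for 80 and more than 200 kb for 149. Just past the limit were a loop on chromosome 14 (81735001 to 81740000 with 81920001 to 81925000, offset 52.5 kb, 38 contacts) and one on chromosome 1 (40280001 to 40290000 with 40440001 to 40450000, offset 55 kb, 123 contacts). Just within it, and so counted as corner loops, were a loop on chromosome 1 (43370001 to 43380000 with 43540001 to 43550000, offset 50 kb, 121 contacts) and a 50 kb loop on chromosome 2 (71090001 to 71100000 with 71140001 to 71150000, offset 50 kb, 114 contacts). A fixed tolerance is wide for the shortest loops, which can meet it with a domain of rather different length.

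Off-corner loops were longer than corner loops. Their median anchor distance was 250 kb (order-statistic interval 230 to 270 kb), with quartiles at 155 and 310 kb, against 190 kb (180 to 200 kb) for corner loops. The share of loops off corners was 30.6% (44 of 144, 23.6 to 38.5%) up to 100 kb and 15.8% (61 of 385, 12.5 to 19.8%) between 100 and 200 kb. It was 31.9% (97 of 304, 26.9 to 37.3%) between 200 and 300 kb and 35.6% (73 of 205, 29.4 to 42.4%) between 300 and 400 kb. The share was thus lowest at 100 to 200 kb, where the intervals did not overlap those of the other ranges. Intervals in the text treat loops as independent, which neighbouring loops are not, and cover only counting error or the spread among the listed loops.

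Distance also separated the classes. Loops outside domains were the shortest, with a median of 165 kb (120 to 215 kb) and a longest member of 330 kb. Loops inside 1 domain had a median of 215 kb (180 to 240 kb) and loops with an anchor at a domain end 270 kb (260 to 290 kb). Loops joining 2 domains were the longest, with a median of 325 kb (260 to 360 kb), and none was shorter than 220 kb. A loop must be long enough to cross from one domain to the next, or short enough to fit in a domain or a gap, so the class rule itself bounds these distances. At the 400 kb limit, a loop on chromosome 8 (8120001 to 8130000 with 8520001 to 8530000, 105 contacts) was among the longest members, and the next off-corner loops beyond it, on chromosomes 2 and 10, spanned 410 kb with 72 and 71 contacts.

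Fewer contacts were observed in off-corner loops than in corner loops. The count of contacts in the loop pixel had a median of 71 (67 to 74), quartiles of 54.5 and 87 and a range of 17 to 349, against a median of 88 (87 to 92) and a range of 23 to 249 at corners. By class the medians were close. They were 73 (66 to 85) inside 1 domain, 70 (55 to 75) for loops joining 2 domains, 72 (66 to 79) at a domain end and 66 (53 to 72) outside domains. Pixel size matters for this count, since a 5 kb pixel covers less of the map than a 10 kb pixel. Anchors of 5 kb made up 39 of 275 off-corner loops (14.2%) and 121 of 763 corner loops (15.9%). With 10 kb anchors only, the medians were 74 (70 to 79) off corners and 96 (93 to 99) at corners. With 5 kb anchors they were 43 (37 to 53) and 47 (44 to 49), where the intervals overlapped.

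Contacts also fall with distance, and the gap between the sets was present within each range of distance, though not beyond the intervals in all of them. Up to 100 kb the medians were 78.5 (65 to 96) off corners and 99 (89 to 105) at corners, where the intervals overlapped. They were 74 (69 to 86) and 95 (89 to 100) between 100 and 200 kb, and 68 (62 to 74) and 88 (84 to 94) between 200 and 300 kb. Between 300 and 400 kb they were 64 (57 to 74) and 72.5 (69 to 79), again with overlapping intervals.

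**Figure D2:**
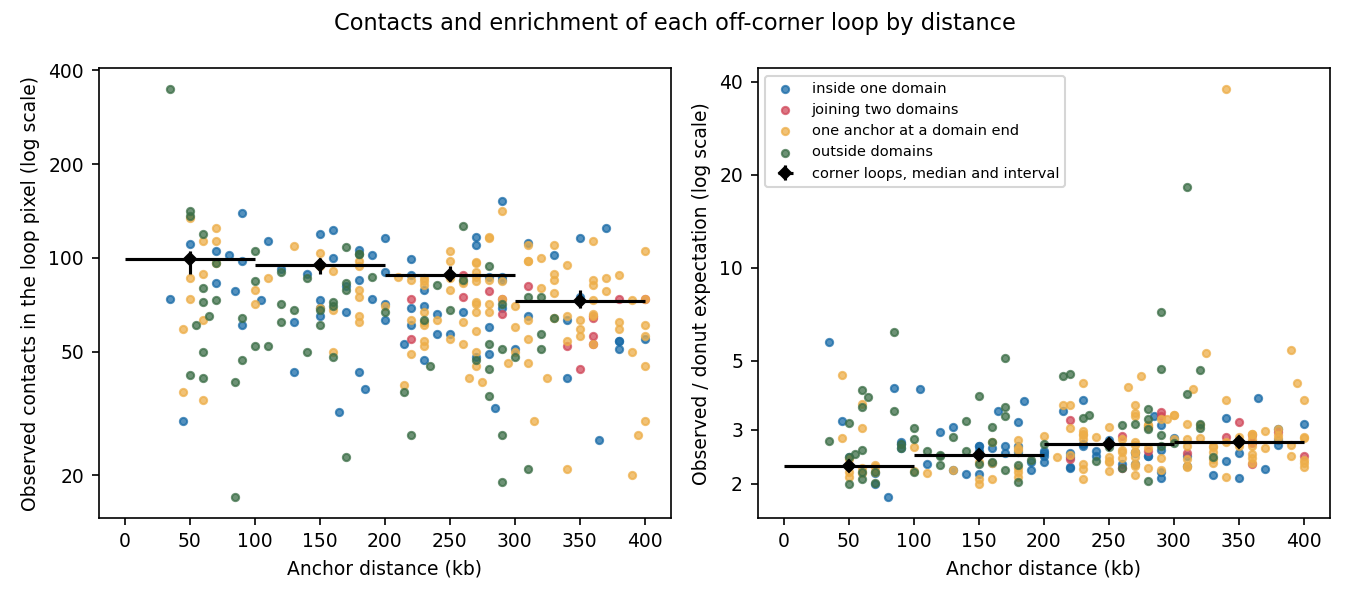
Observed contacts (left, log scale) and enrichment over the donut expectation (right, log scale) of each off-corner loop against anchor distance in kb, coloured by class; the single loop outside the 4 classes is not drawn. Black diamonds are medians of corner loops in 100 kb ranges with order-statistic intervals. At 100 to 300 kb most off-corner loops lie below the corner median of contacts. The loops at 38.0-fold and 18.3-fold are 340 and 310 kb long.

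The caller sets each observed count against 4 expectations taken from the map around the pixel. The donut is a ring around it, the lower-left window lies toward the diagonal between the anchors, and the horizontal and vertical windows follow the row and the column of the pixel and so the stripes that leave either anchor. The expected contacts were lower off corners in all 4. The medians were 26.3 off corners against 35.5 at corners for the donut, 29.0 against 38.8 for the lower left, 30.2 against 41.3 for the horizontal and 30.1 against 41.2 for the vertical window. Loops outside domains had the lowest expectations among the 3 larger classes, with medians of 23.9 for the donut, 24.4 for the lower left, 26.6 for the horizontal and 25.6 for the vertical. The values inside 1 domain were 28.6, 30.8, 32.8 and 32.6 in the same order, those at a domain end 27.5, 29.2, 33.2 and 32.5, and those joining 2 domains 24.4, 26.4, 29.9 and 27.8.

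Enrichment over these expectations was as high off corners as at them, or slightly higher. Over the donut the median was 2.65-fold (2.56 to 2.72) off corners and 2.55-fold (2.51 to 2.59) at corners, with overlapping intervals. Within ranges of distance, the donut medians off and at corners were 2.60 and 2.29-fold up to 100 kb and 2.52 and 2.47-fold at 100 to 200 kb. They were 2.70 and 2.69-fold at 200 to 300 kb and 2.74 and 2.73-fold at 300 to 400 kb. Over the highest of the 4 expectations, the strictest measure, the median was 2.17-fold (2.13 to 2.23) off corners and 2.05-fold (2.02 to 2.07) at corners. By distance, these intervals were apart only up to 100 kb (2.22-fold, 2.08 to 2.34, against 1.97-fold, 1.90 to 2.02). Loops outside domains stood highest on that measure, at 2.40-fold (2.25 to 2.58), against 2.11-fold (2.01 to 2.19) inside 1 domain, 2.19-fold (2.08 to 2.42) joining 2 domains and 2.13-fold (2.04 to 2.22) at a domain end. The interval of loops outside domains overlapped that of loops joining 2 domains and lay above those of the other classes and of corner loops. With 10 kb anchors only it was 2.31-fold (2.18 to 2.47) outside domains, 2.04-fold (1.96 to 2.14) inside 1 domain, 2.08-fold (2.01 to 2.15) at a domain end and 2.00-fold (1.98 to 2.02) at corners. Listed loops had to pass thresholds on these ratios, and a pixel with fewer contacts needs a higher ratio to pass. The part of that threshold in the order of the classes was not tested.

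**Figure D3:**
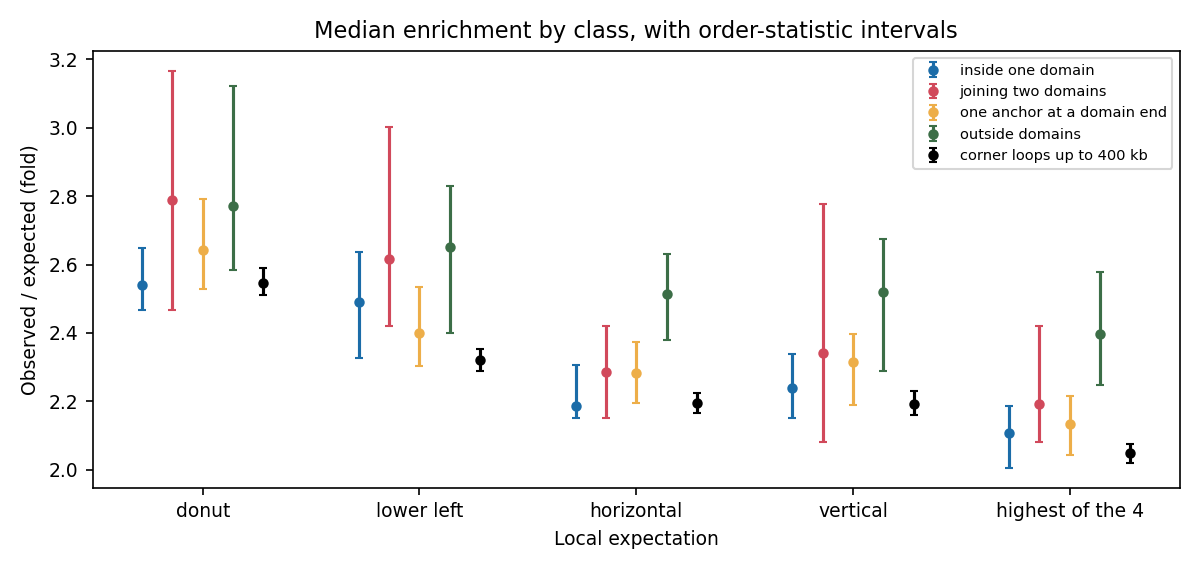
Median ratio of observed to expected contacts (vertical axis, fold, not starting at 0) for each local expectation, by class of off-corner loop and for corner loops, with 95% order-statistic intervals. Loops outside domains have the highest medians over the lower-left, horizontal and vertical windows and over the highest of the 4. Corner loops have the lowest medians over the lower-left and vertical windows and over the highest of the 4.

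The highest of the 4 expectations was the vertical window in 119 members (43.3%), the horizontal in 117 (42.5%), the lower left in 34 (12.4%) and the donut in 5 (1.82%, 0.779 to 4.18%). At corners the vertical was the highest in 42.5%, the horizontal in 43.6% and the lower left in 13.9%, and the donut was so in 0 of 763, where the Wilson interval reaches 0.501%. The lower left was the highest in 13 of 64 loops outside domains (20.3%, 12.3 to 31.7%) and in 7 of 73 inside 1 domain (9.59%, 4.72 to 18.5%), with overlapping intervals. In the authors' deposited table each expectation has an FDR, a q-value, which was at most 0.0999 in any member. The highest of the 4 FDR values of a loop in the authors' deposited table had a median of 0.00159 off corners and 0.000832 at corners.

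The number of pixels merged into 1 loop also differed between the sets. The caller joins neighbouring enriched pixels and records their number, so a value of 1 is an isolated pixel. More than 1 pixel was merged in 107 of 275 off-corner loops (38.9%, 33.3 to 44.8%) and in 497 of 763 corner loops (65.1%, 61.7 to 68.4%). Merging of 3 or more pixels was seen in 26 off-corner loops (9.45%, 6.53 to 13.5%) and in 222 corner loops (29.1%, 26.0 to 32.4%). The share of loops with more than 1 pixel was 39.7% (29 of 73, 29.3 to 51.2%) inside 1 domain, 41.3% (50 of 121, 32.9 to 50.2%) at a domain end and 37.5% (24 of 64, 26.7 to 49.7%) outside domains. Among loops joining 2 domains it was 3 of 16 (18.8%, 6.59 to 43.0%), with an interval that overlapped the others.

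The gap in merged pixels was seen within each range of distance. The share with more than 1 pixel was 27.3% off corners against 55.0% at corners up to 100 kb, 44.3% against 67.6% between 100 and 200 kb, 43.3% against 68.1% between 200 and 300 kb and 35.6% against 62.1% between 300 and 400 kb. Shares are also given by observed contacts. For loops with at most 60 contacts the shares were 24.7% (21 of 85, 16.8 to 34.8%) off corners and 60.3% (76 of 126, 51.6 to 68.4%) at corners. They were 40.7% (37 of 91, 31.1 to 50.9%) and 58.3% (98 of 168, 50.8 to 65.5%) from 61 to 80 contacts, and 50.8% (30 of 59, 38.4 to 63.2%) and 64.0% (126 of 197, 57.0 to 70.3%) from 81 to 100, and in both ranges the intervals overlapped. Above 100 contacts they were 47.5% (19 of 40, 32.9 to 62.5%) and 72.4% (197 of 272, 66.8 to 77.4%).

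**Figure D4:**
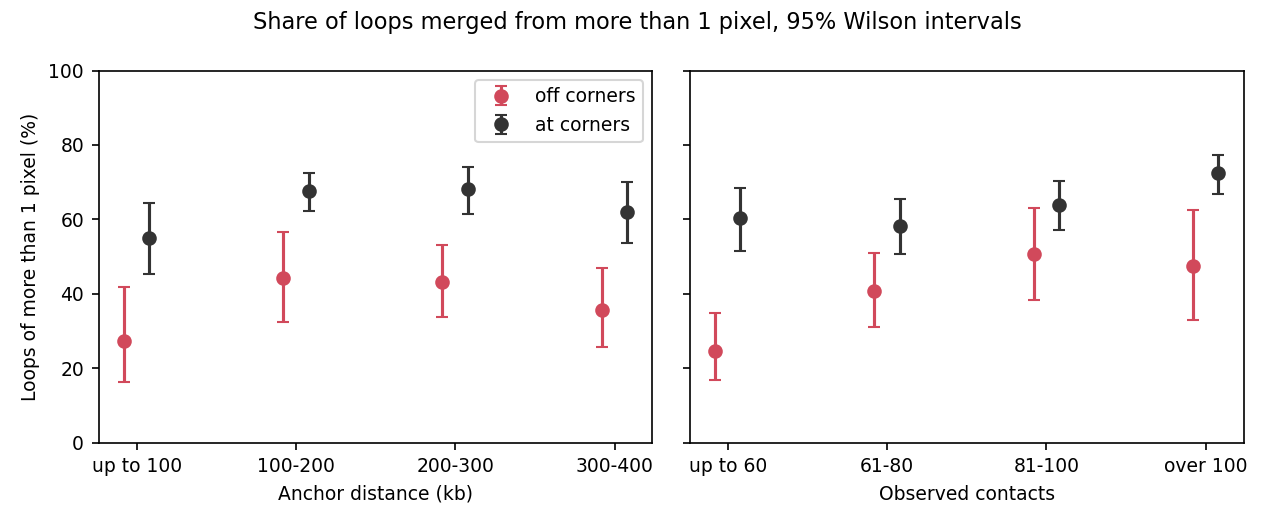
Percent of loops merged from more than 1 pixel (vertical axis) by anchor distance in kb (left) and by observed contacts (right), for off-corner loops (red) and corner loops (black), with 95% Wilson intervals. The off-corner share is below the corner share in all 8 pairs, and the intervals overlap only at 61 to 80 (by a narrow margin) and 81 to 100 contacts.

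Loops inside 1 domain mostly ran from near one end of their domain into its interior. Of the 73, 28 had the left anchor within 50 kb of the left end of the smallest domain that held the loop, 34 had the right anchor within 50 kb of the right end, and 11 were at neither. No loop met both, as the corner rule fixes. The 50 kb tolerance is wide against the room that some of these domains leave around their loop. The share of loops that random placement would put near an end was not computed. The loops lay in 70 different domains with a median length of 415 kb (375 to 455 kb), against 235 kb over all 3845 domains. A domain has to exceed its loop to hold it off the corner, so longer domains follow from the rule. The loop spanned a median of 54.8% of its domain, from 7.83% to 84.3%. It spanned 59.0% (49.4 to 69.2%) where the left end was met, 57.0% (33.1 to 65.9%) where the right end was met and 41.7% (14 to 55.7%) where neither was.

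**Figure D5:**
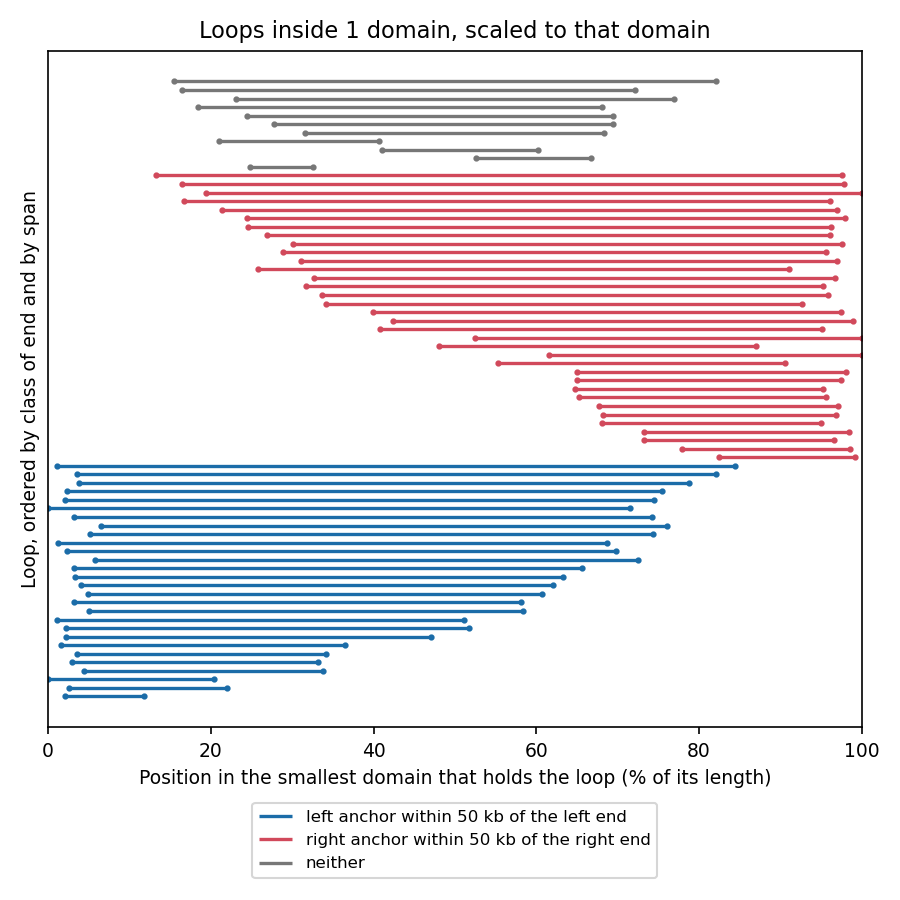
Each of the 73 loops inside 1 domain as a line between its anchors, placed by percent of the length of the smallest domain that holds it (horizontal axis, 0 is the left end) and stacked by which end is met. Blue lines (28) start near the left end, red lines (34) finish near the right end and grey lines (11) meet neither.

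Of the 70 domains that held such a loop, 22 also had a corner loop of any length (31.4%, 21.8 to 43.0%), against 925 of all 3845 domains (24.1%, 22.7 to 25.4%), with overlapping intervals. The domain caller's own score had a median of 1.27 (1.16 to 1.39) for the domains around loops inside 1 domain. It was 1.40 (1.37 to 1.43) for the smallest domain around each of the 543 corner loops that were held by one, and 1.20 over all domains. The sources used here do not say what that score measures. Only 2 domains held more than 1 member. One, on chromosome 11 (128025001 to 128730000, 705 kb), held 2 and the other, on chromosome 19 (46525001 to 46770000, 245 kb), held 3.

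The chromosome 19 domain showed off-corner loops meeting around 1 site. A loop of 50 kb ran from the left end (46520001 to 46530000) to 46570001 to 46580000, with 111 contacts and 2.45-fold enrichment over the donut (95% Poisson interval 2.02 to 2.95). The next bin, 46580001 to 46590000, was joined to 46690001 to 46700000 by a 110 kb loop with 113 contacts (2.33-fold, 1.92 to 2.80) and to the right end of the domain (46760001 to 46770000) by a 180 kb loop with 106 contacts (2.54-fold, 2.08 to 3.07). Their enrichment over the highest expectation was 2.11, 1.98 and 1.84-fold. The 3 loops thus shared a site, to within 10 kb, from which 1 reached each end of the domain. Its anchors lay 50 and 60 kb from the left end, so the first counts as at an end under the 50 kb tolerance. The compartment score of the site, 0.170, ranked at the 94.8th percentile of the bins of that chromosome.

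Among the other loops inside 1 domain, the highest enrichment over the highest expectation was that of a 35 kb loop on chromosome 15 (32935001 to 32940000 with 32970001 to 32975000). It held 74 contacts against 12.8 expected from the donut, a 5.77-fold enrichment (4.53 to 7.25), and 4.57-fold (3.59 to 5.73) over the lower-left window, and was the shortest loop of the class. It lay at the left end of a 360 kb domain (32930001 to 33290000) with a caller score of 1.6. Next came an 85 kb loop on chromosome 4 (166300001 to 166305000 with 166385001 to 166390000) with 78 contacts, 4.10-fold over the donut (3.24 to 5.11) and 3.91-fold (3.09 to 4.88) over the highest expectation, at the right end of a 365 kb domain (166035001 to 166400000) scoring 1.85. The third, on chromosome 2 (33070001 to 33075000 with 33435001 to 33440000), was 365 kb long and met neither end of its 655 kb domain, on only 26 contacts (3.8-fold, 2.48 to 5.56). The most contacts in the class, 152, belonged to a 290 kb loop on chromosome 10 (15470001 to 15480000 with 15760001 to 15770000), at 2.57-fold over the donut (2.17 to 3.01) and 1.97-fold (1.67 to 2.31) over the highest. The longest, 400 kb on chromosome 16 (19910001 to 19920000 with 20310001 to 20320000, 55 contacts), had its left anchor at the left end of a 480 kb domain and its anchors in bins of opposite sign, 0.000368 and -0.0837.

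Loops joining 2 domains were few, and 10 of the 16 ran from the nearest start of one domain to the nearest end of another, and each of these enclosed 2 or more whole domains to within 50 kb. A median of 91.4% of the span of the 16 loops lay in listed domains, and 14 spans overlapped 2 or more domains. All had 10 kb anchors, and 13 were single pixels. The highest enrichment over the highest expectation was on chromosome 5 (58180001 to 58190000 with 58470001 to 58480000), where 66 contacts gave 3.32-fold over the donut (2.57 to 4.23) and 2.66-fold (2.06 to 3.38) over the horizontal window. A loop on chromosome 3 (98540001 to 98550000 with 98890001 to 98900000, 350 kb, 44 contacts) followed at 2.47-fold (1.80 to 3.32), and one on chromosome 10 (6150001 to 6160000 with 6440001 to 6450000, 74 contacts) at 2.43-fold (1.91 to 3.06). The intervals of these 3 loops overlapped. The right anchor on chromosome 3 was also joined to 98740001 to 98750000 by a loop inside 1 domain, of 150 kb and 69 contacts.

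The most contacts among loops joining 2 domains, 88, were on chromosome 4 (158910001 to 158920000 with 159170001 to 159180000), at 2.86-fold over the donut (2.30 to 3.53). The shortest, 220 kb on chromosome 1 (153320001 to 153330000 with 153540001 to 153550000), held 55 contacts and 3.22-fold (2.43 to 4.19). The longest, 400 kb on chromosome 10 (13410001 to 13420000 with 13810001 to 13820000), held 74 contacts and 2.47-fold (1.94 to 3.10), with its anchors 20 and 5 kb from domain ends.

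Loops with an anchor at a domain end took several forms, told apart by whether each anchor was nearer to a domain's left or right end. The most common, with 52 loops, led away from a domain, from its right end rightward or from its left end leftward, to a site that was at no end. In 42 of these no domain overlapped the span at all. Their median distance was 250 kb (180 to 270 kb), with 79 contacts (70 to 86) and 2.44-fold enrichment over the donut (2.34 to 2.68). A further 16 bridged a gap, from the right end of one domain to the left end of the next or a later one, and in 13 of them no domain overlapped the span. They had a median of 73 contacts (59 to 87) and 2.43-fold enrichment (2.22 to 3.03) at 245 kb (70 to 290 kb).

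In 23 loops the span crossed a domain from one end and went on beyond its other end to a site at no end. Their median distance was 310 kb (270 to 330 kb), with 63 contacts (56 to 85) and 2.80-fold enrichment (2.62 to 2.87). Of the remaining 30 loops, 10 joined the left end of one domain to the right end of another, 10 joined 2 left ends and 10 joined 2 right ends. Their median donut enrichments were 2.85, 2.91 and 2.72-fold, on 55.5, 75 and 68 contacts. The forms that crossed domains thus had higher median enrichment and longer distances than those leading away from a domain or bridging a gap, while their enrichment intervals overlapped.

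The highest enrichment among loops at a domain end was on chromosome 2 (86950001 to 86960000 with 87290001 to 87300000), where 21 contacts stood against 0.553 expected from the donut, a 38.0-fold enrichment (23.5 to 58.0). Over the vertical window, the highest expectation, it was 19.3-fold (12 to 29.6). The expected counts there were at most 1.09 in all 4 windows, against a class median of 27.5 for the donut. A loop on chromosome 1 (149330001 to 149340000 with 149720001 to 149730000) had 20 contacts and 5.44-fold enrichment (3.33 to 8.41), and the single loop with 1 anchor in a domain and none near an end lay beside it (149300001 to 149310000 with 149690001 to 149700000, 47 contacts, 2.97-fold, 2.18 to 3.95). On chromosome 20 a 275 kb gap-bridging loop (48800001 to 48805000 with 49075001 to 49080000) held 40 contacts at 4.48-fold over the donut (3.20 to 6.10) and 3.78-fold (2.70 to 5.15) over the highest expectation.

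The most contacts at a domain end, 141, were on chromosome X (103090001 to 103100000 with 103380001 to 103390000), at 2.22-fold over the donut (1.87 to 2.62) and 1.75-fold (1.48 to 2.07) over the highest expectation. The shortest loop of the class, 45 kb on chromosome 12 (54090001 to 54095000 with 54135001 to 54140000), bridged a gap with 59 contacts at 2.82-fold (2.15 to 3.64). On chromosome 9 a 230 kb loop (82540001 to 82545000 with 82770001 to 82775000) merged 9 pixels and held 82 contacts, 4.24-fold over the donut (3.37 to 5.26) but 2.53-fold (2.01 to 3.14) over the vertical window. On chromosome 6 the bin 3050001 to 3060000 took part in 2 members, to 2850001 to 2860000 (70 contacts, 2.87-fold, 2.24 to 3.62) and to 2990001 to 3000000 (113 contacts, 2.17-fold, 1.79 to 2.61).

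Loops outside domains were mostly well away from any listed domain. Their nearer anchor was a median of 330 kb (200 to 560 kb) from the nearest domain end, from 60 kb to 4337.5 kb, and 26 of 64 were more than 500 kb away. No domain overlapped the span of 63 of them. The loop with the most contacts of all members was one of these, on chromosome 10 (47025001 to 47030000 with 47060001 to 47065000, 35 kb apart). It held 349 contacts against 127 expected from the donut (2.75-fold, 2.47 to 3.05) and merged 10 pixels, also the most of all members. The nearest domain end was 1082.5 kb away. The longest loop of the class, 330 kb on chromosome 6 (69340001 to 69350000 with 69670001 to 69680000), held 64 contacts at 2.45-fold (1.89 to 3.13).

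The highest enrichment outside domains rested on few contacts. On chromosome 4 (49240001 to 49250000 with 49550001 to 49560000), 21 contacts stood against 1.15 from the donut, an 18.3-fold enrichment (11.3 to 27.9), and the loop lay in the 1 Mb bin next to one with no compartment score. Next among those with at least 20 contacts was a loop on chromosome 7 (76060001 to 76070000 with 76230001 to 76240000). It had 23 contacts at 3.82-fold (2.42 to 5.73) over the highest expectation. One on chromosome 14 (106480001 to 106485000 with 106770001 to 106775000) had 27 contacts at 3.77-fold (2.49 to 5.49). Loops with fewer contacts stood above these, at 6.19-fold on chromosome 5 (17 contacts) and 5.81-fold on chromosome 3 (19 contacts). Over all members, 24 reached 3-fold or more over the highest expectation. Of these, 1 lay within 2 bins of a bin with no score (4.17%, 0.739 to 20.2%), against 3 of the other 251 (1.20%, 0.407 to 3.45%). The 24 comprised 10 loops outside domains, 10 at a domain end, 4 inside 1 domain and 0 joining 2 domains. Their median donut expectation was 7.88 contacts, against 27.8 in the other 251. Among corner loops 32 of 763 reached 3-fold or more (4.19%, 2.99 to 5.86%, against 8.73%, 5.93 to 12.7%, off corners), with a median donut expectation of 10.1 against 36.3 in the rest. Pixel size enters these values, since most of the 24 members had 5 kb anchors. Off corners, 5 kb anchors had medians of 43 contacts and 2.92-fold over the highest expectation, against 74 and 2.13-fold with 10 kb anchors. At corners these medians were 47 and 2.66-fold against 96 and 2.00-fold. The 3-fold level was not split by pixel size.

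Some anchors were shared between loops. An anchor within 10 kb of an anchor of any other listed loop was found in 98 of 275 off-corner loops (35.6%, 30.2 to 41.5%) and 242 of 763 corner loops (31.7%, 28.5 to 35.1%). Sharing an anchor with a corner loop of any length was seen in 68 members (24.7%, 20.0 to 30.2%) and in 122 corner loops (16.0%, 13.6 to 18.8%). By class it was 10 of 16 for loops joining 2 domains (62.5%, 38.6 to 81.5%), 23 of 73 inside 1 domain (31.5%, 22 to 42.9%), 35 of 121 at a domain end (28.9%, 21.6 to 37.6%) and 0 of 64 outside domains, where the Wilson interval reaches 5.66%. Corner loops lie at domain ends, so a class defined as away from ends has little room for such sharing. Of the loops joining 2 domains, 13 of 16 had both anchors at an end. Among loops at a domain end, sharing was seen in 6 of 10 from a left to a right end. It was 6 of 10 between left ends and 5 of 10 between right ends. In the other forms it was 9 of 23 crossing a domain and beyond, 7 of 52 leading away and 2 of 16 bridging a gap. Only 3 members were the long side of a triangle, in which both anchors were also looped to 1 site between them.

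Compartment scores of the anchors gave similar shares off and at corners, with overlapping intervals. A score is given for each 1 Mb bin, and by its sign as deposited 175 of 275 members (63.6%, 57.8 to 69.1%) had both anchors in positive bins, 86 (31.3%, 26.1 to 37.0%) both in negative bins and 14 (5.09%, 3.06 to 8.36%) in bins of opposite sign. For corner loops the shares were 65.1% (61.7 to 68.4%), 30.1% and 4.72%. Over the genome, 48.9% of signed bins were positive. The sources used here do not say which sign stands for the gene-rich A compartment, or whether it is the same on all chromosomes. A score of 0.0374 on chromosome 4 ranked at the 34.7th percentile of its chromosome, and one of -0.0525 on chromosome X at the 58.9th. Shares by sign, here and by class, thus pool chromosomes whose signs may not be comparable. In 212 members (77.1%) both anchors fell in 1 bin and could not differ, and among the other 63 the signs were opposite in 14 (22.2%, 13.7 to 33.9%), against 36 of 151 (23.8%, 17.7 to 31.2%) at corners.

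By class, both anchors lay in positive bins in 48 of 73 loops inside 1 domain (65.8%, 54.3 to 75.6%), 13 of 16 joining 2 domains (81.3%, 57.0 to 93.4%), 77 of 121 at a domain end (63.6%, 54.8 to 71.7%) and 36 of 64 outside domains (56.3%, 44.1 to 67.7%). Loops outside domains had both anchors in negative bins in 27 cases (42.2%, 30.9 to 54.4%). All these intervals overlapped. How scores are scaled between chromosomes is not given, so their levels were compared as percentile ranks in the chromosome. The median rank of the anchors was 61.7 inside 1 domain (57.4 to 70.1), 68.2 joining 2 domains (57.0 to 73.5), 65.4 at a domain end (61.9 to 71.0), 58.1 outside domains (53.4 to 66.2) and 65.7 for corner loops (63.3 to 67.0). On each of chromosomes 5, 11, 13, 14 and 22, 1 bin carried at least 42.3% of the squared score. Chromosome 4, where the top bin carried only 1.35%, does not share that trait and was left out with earlier results known. Without these chromosomes and chromosome 4, the ranks were 65.0, 70.2, 67.2, 58.2 and 67.0 in the same order.

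Members lay on all chromosomes listed except 22, which has no loop. Chromosome 1 had the most (28 of 137 loops up to 400 kb, 20.4%, 14.5 to 28.0%), followed by chromosomes 3 (23 of 71, 32.4%) and 10 (20 of 75, 26.7%). The share off corners was highest on chromosome 19 (11 of 22, 50%, 30.7 to 69.3%) and, among chromosomes with at least 20 such loops, lowest on chromosome 7 (7 of 48, 14.6%, 7.25 to 27.2%). Chromosome 3 held 12 of the 64 loops outside domains. The interval of chromosome 19 lay above those of chromosomes 1, 6 (18 of 95, 18.9%, 12.3 to 28.0%) and 7 and overlapped those of the other chromosomes with members.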

How the data were processed

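In situ Hi-C of 2 HEK293T libraries was analysed from 3 deposited tables that pool both. The submitters' processing notes name the build hg19 and the tools BWA 0.7.8, FastQC 0.11.7 and Picard. Library depth is unknown here. Per the deposited file name, HiCCUPS calls at resolutions of 5 and 10 kb were merged. Per the file headers, the loop table gives observed contact counts, expected contacts from 4 windows, q-values and the count of merged pixels. The authors' domain score and the deposited compartment score per 1 Mb bin come from methods the sources used here do not give.

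Anchor distance is start to start, and positions are counted from 1. Domain ends and corners used a tolerance of 50 kb, and lying in a domain used none. Ratios are observed over expected counts. Single loops have exact 95% Poisson intervals with the expectation held fixed, shares Wilson intervals, and medians order-statistic intervals. Classification was tested on simulated loops (Python 3.11.15, pandas 2.3.3, scipy 1.17.1). Loops named in the text are, per class, the 3 most enriched over the highest expectation with at least 20 contacts, those with the most contacts, the longest and the shortest, plus shared anchors, the most merged pixels and those at the thresholds. The members, classes and lists were chosen with earlier results of these data known. Shared anchors, forms of domain-end loops, merged pixels by contacts and the 3-fold level were added after the data were seen. No genome or annotation of this build was used, so no gene or sequence is given.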

Additional observations from a re-analysis of the deposited data

How the results depend on the processing

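No paired analysis was possible because the tables pool both libraries, and for the same reason no library could be left out. Of 236 values recomputed under other settings, 204 stayed within the main interval (for the number of members, within 1.5 times) and 32 moved. Some of the 204 could not move. The end tolerance does not enter the classes inside 1 domain and joining 2 domains, and all loops joining 2 domains have 10 kb anchors. With a corner tolerance of 25 kb, the share inside 1 domain was 34.8% and outside domains 18.6%, and inside 1 domain the contacts were 85.5 and the enrichment over the highest expectation 2.00-fold. With domain ends taken first, 4% were inside 1 domain (median 140 kb, 54.5% of more than 1 pixel), 0% joined 2 domains and 72.4% had an anchor at an end. With an end tolerance of 25 kb, 37.8% had an anchor at an end and 29.1% lay outside domains. Up to 300 kb, 3.47% joined 2 domains, 38.1% had an anchor at an end (median 230 kb) and 28.7% lay outside.

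Keeping only loops of more than 1 pixel left 107 members, with 2.80% joining 2 domains (78 contacts, 100% in positive bins). Loops at a domain end then had 84.5 contacts and a donut enrichment of 2.51-fold (2.00-fold by the highest expectation), and 37.5% of loops outside domains lay in positive bins. Over the horizontal window the medians were 2.19-fold inside 1 domain, 2.29-fold joining 2 domains, 2.28-fold at an end and 2.51-fold outside. Over the vertical they were 2.24, 2.34, 2.32 and 2.52-fold, and over the lower left 2.40-fold at an end. The share of more than 1 pixel could not be recomputed among loops chosen by it. Few contacts limit single loops, as 21 members had under 40.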
